A study of Homo sapiens with 4 samples.

Results

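Genes switched on by the ERK pathway, and the inhibitors that the pathway induces against itself, were compared between Jurkat cells carrying a scrambled hairpin and Jurkat cells carrying a hairpin against SOX4. The 10 genes were chosen by symbol from the deposited count table, which holds 64252 gene IDs: the early growth response factors EGR1, EGR2 and EGR3, the ETS factors ETV4 and ETV5, the MAP kinase phosphatases DUSP4, DUSP5 and DUSP6, and the inhibitors SPRY1 and SPRED1. All 10 had a row and all 10 passed the filter on low counts. Jurkat is an established human T cell acute lymphoblastic leukemia line. The control group carried a scrambled short hairpin RNA (sh-Scb, 2 libraries) and the other group a hairpin against the transcription factor gene SOX4 (sh-SOX4, 2 libraries), and the labels name no stimulus, time point or other agent for either group. The labels do not say whether clones or bulk cells were used. Nor do they say that the libraries of a group were grown apart: p-values then measure the spread between these samples alone, which may be technical.

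In the ERK pathway, a surface receptor loads RAS with GTP, and RAS starts a relay of the kinases RAF, MEK and ERK. Active ERK phosphorylates ETS-family proteins that sit with the serum response factor SRF on DNA, and the EGR genes are transcribed within minutes; ETV4, ETV5, the DUSP phosphatases and the Sprouty and SPRED proteins follow, and the last 3 groups damp the relay. In T cells this relay runs downstream of the T cell receptor, and EGR factors are known for their part in thymocyte selection and in the response to receptor engagement.

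The sequence just before the start of EGR1 and of EGR2 is shown because SRF, the DNA-binding partner in this relay, recognises the CArG box, a run of A and T bases between CC and GG. RefSeq promoter windows (GRCh38.p14, 250 bases before to 50 after a start) were matched for 5 members, EGR1, EGR2, SPRY1, DUSP6 and SPRED1, with 8 starts among them. EGR3 and DUSP4 were left out of the match by choice, so whether their windows hold a CArG box was not examined. ETV4, ETV5 and DUSP5 had no matched entry. The bases before the start are printed 5′ to 3′ for chr5:138465229-138465478 on the plus strand (EGR1) and chr10:62816367-62816616 on the minus strand (1 of 3 EGR2 starts). Capitals mark CArG boxes and, in EGR1, a match to the EGR motif GCGNGGGCG.
EGR1: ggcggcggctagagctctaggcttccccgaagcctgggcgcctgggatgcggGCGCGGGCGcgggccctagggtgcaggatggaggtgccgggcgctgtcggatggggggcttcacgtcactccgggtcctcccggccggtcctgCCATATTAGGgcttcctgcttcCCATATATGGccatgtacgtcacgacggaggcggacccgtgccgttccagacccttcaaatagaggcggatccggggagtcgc
EGR2: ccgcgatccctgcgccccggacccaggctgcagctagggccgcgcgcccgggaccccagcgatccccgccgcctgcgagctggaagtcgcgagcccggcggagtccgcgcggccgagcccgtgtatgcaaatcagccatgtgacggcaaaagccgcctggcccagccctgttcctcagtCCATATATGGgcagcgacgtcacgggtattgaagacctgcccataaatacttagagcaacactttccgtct

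Counting the base before the start as -1, the EGR1 window held CArG boxes at -105 to -96 and at -83 to -74, and this EGR2 window held 1 at -71 to -62. On both strands, 1.29% of 35116 RefSeq promoter windows of the same length held a CArG box, and 0.0313% held 2 or more. Each of these EGR windows also held TGACG, part of the cyclic AMP response element, in 2 places that do not overlap the CArG boxes, and 6.02% of windows held it 2 or more times. None of the windows of SPRY1, DUSP6 or SPRED1 held a CArG box. A SPRY1 window held the ETS motif CCGGAAG at -67 to -61 and an EGR motif at -28 to -20, motifs found in 10.3% and 9.43% of windows. These are matches of letters and not measured binding. Of 191 tested genes with a CArG box in a window, 53 were lower and 59 higher in sh-SOX4. These are 27.7% lower and 30.9% higher, beside 23% and 29.1% of the 12057 tested genes with a window.

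The 4 libraries held 29093287 to 36636219 counts. Levels are given as CPM, counts brought to a common library size with the TMM factors, which assume that most genes do not differ. Before these factors are applied, a level of 0.0819 to 0.103 CPM stands for 3 counts. Every fold change is sh-SOX4 over sh-Scb. The targeted gene, SOX4, fell from 274 ± 4.26 to 195 ± 5.61 CPM (SD, n = 2), leaving 71.1% of its control level (adjusted p 1.24e-05). The labelled cell type was checked against 12 T cell genes, all of them tested, whose summed level lay between 2286 and 2296 CPM in sh-Scb and between 2818 and 2864 CPM in sh-SOX4. Marker lists of other cells summed to 7.14 to 10.6 CPM (myeloid), 9.13 to 9.84 CPM (NK), 24.9 to 26.1 CPM (fibroblast), 0.963 to 1.22 CPM (erythroid) and 0.767 to 1.26 CPM (epithelial) in sh-Scb, with LYZ, HBB and COL1A2 at 0 counts in every library. In sh-SOX4 the same lists summed to 6.82 to 7.16, 8.63 to 9.68, 17.5 to 17.8, 0.631 to 1.28 and 1.1 to 1.2 CPM. Most of the fibroblast sum was COL1A1, with a mean of 25.1 CPM in control cells and 17.3 CPM under the SOX4 hairpin. COL1A1 fell by 0.54 on the log2 scale (adjusted p 0.00132). CD68 of the myeloid list fell by 0.75 (adjusted p 0.0297) and GNLY of the NK list by 1.73 (adjusted p 0.0405). No tested gene of these lists passed as higher. The B cell list of 5 genes summed to between 66.9 and 68.8 CPM in sh-Scb and between 15.05 and 16.7 CPM in sh-SOX4, most of it CD79A, which fell by 2.32 on the log2 scale. In the same list CD79B rose by 1.83 (adjusted p 0.0126), and the defining gene MS4A1, not tested, gave 2 and 0 counts in control cells against 7 and 9 in sh-SOX4. The part of these cells in the results was not tested, and in bulk RNA fewer cells of a type and less RNA per cell cannot be told apart.

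Of the 10 members, 4 fell in sh-SOX4 (EGR1, ETV4, ETV5 and SPRY1) and none rose, at an adjusted p under 0.05 in edgeR's quasi-likelihood test over all 19897 gene IDs tested; with library totals in place of TMM, 6 did, DUSP6 and SPRED1 being added. Among all tested IDs 44.1% were called, 20.9% lower and 23.2% higher, so the share of members called in either direction is close to the background. Their median log2 fold change was -0.82, beside -0.01 for all tested IDs, and all 10 estimates were below 0, although that of DUSP4 lay above 0 without sh-SOX4 replicate 1 (0.18) or sh-Scb replicate 2 (0.16). In 9 of 10 members every sh-SOX4 library lay below every sh-Scb library, as did 36.6% of all tested IDs, and 72.9% of them were separate in either direction. DUSP4 was the member whose groups overlapped. The summed level of the 10 genes was 451 and 462 CPM in the sh-Scb libraries and between 263 and 266 CPM in the sh-SOX4 libraries, and ETV5 alone supplied between 59.5% and 65.6% of the members' counts.

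**Figure D1:**
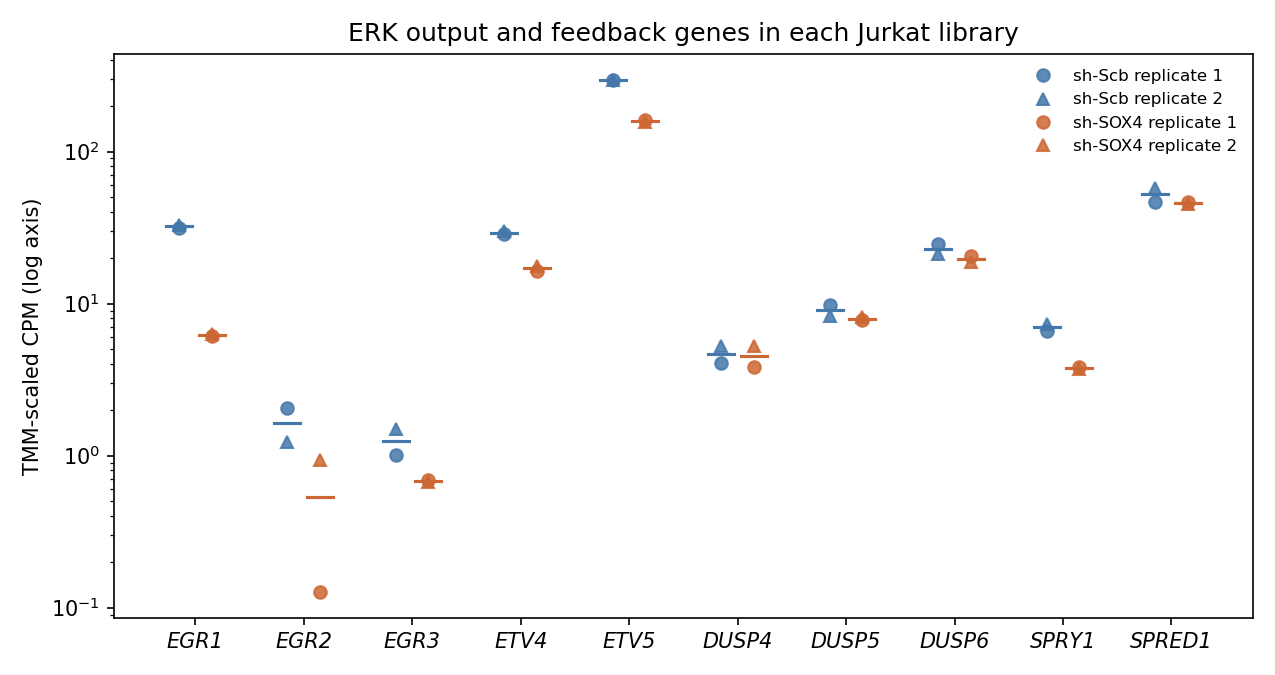
TMM-scaled CPM (log axis) of the 10 members in each of the 4 libraries; bars mark the mean of 2 libraries. EGR1 drops from about 32.1 to 6.23 CPM with almost no spread within groups, while the EGR2 points of sh-SOX4 lie far apart, at 0.126 and 0.941 CPM.

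EGR1, a zinc finger factor and the classic immediate early product of ERK signalling, changed most among the members. It lies on chromosome 5 from 138465490 to 138469315 on the plus strand in GENCODE release 29 on GRCh38, and no other annotated gene shares its exons. Reads of EGR1 numbered 1196 and 983 with the scrambled hairpin and 194 and 189 with the SOX4 hairpin, or 31.6 and 32.6 against 6.12 and 6.35 CPM. The groups are far apart and the 2 libraries of each group nearly coincide. EGR1 fell 5.15-fold, a log2 fold change of -2.37 (SE 0.11, 95% interval -2.60 to -2.13, adjusted p 1.6e-07). Of all tested IDs, 0.764% had a lower log2 fold change than EGR1, and 188 called IDs changed by more in size. Only 1 member, EGR1, fell by at least 2-fold with an adjusted p under 0.05, as did 6.07% of all tested IDs.

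EGR2 and EGR3, relatives of EGR1 that bind the same GC-rich motif, had low counts and did not pass. EGR2, on chromosome 10 from 62811996 to 62919900, gave 78 and 37 counts with the scrambled hairpin against 4 and 28 with the SOX4 hairpin. The groups do not overlap, but the sh-SOX4 libraries differ more from each other than sh-SOX4 replicate 2 differs from sh-Scb replicate 2. The log2 fold change was -1.64, with an interval from -3.57 to 0.29 and an adjusted p of 0.145. Without sh-SOX4 replicate 2 it became -3.68 with an adjusted p of 0.000561, and without sh-SOX4 replicate 1 it became -0.81 with an adjusted p of 0.189. EGR3, which acts with EGR2 to restrain T cell activation and lies on chromosome 8 from 22687659 to 22693302, gave 38 and 45 counts in control cells against 22 and 20 in sh-SOX4. Its log2 fold change was -0.86, with an interval from -1.74 to 0.02 and an adjusted p of 0.104. A fall of the size of EGR1's lies within the interval for EGR2, but below the interval for EGR3. The fourth family member, EGR4, had at most 11 counts in a library and was not tested.

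ETV4 and ETV5 are PEA3-type ETS factors whose transcripts follow ERK activity in many cell types. Both fell by a similar amount. ETV5, on chromosome 3 from 186046308 to 186110318 on the minus strand, gave 11173 and 8951 counts in control cells against 5097 and 4660 in sh-SOX4. Its level went from 296 ± 1.17 to 159 ± 2.95 CPM (SD, n = 2), a log2 fold change of -0.90 (SE 0.043, adjusted p 2.15e-07). The interval from -1.0 to -0.81 is the narrowest among the 10 members, and ETV5 has the highest counts of them. ETV4, on chromosome 17 from 43527844 to 43579620, gave 1089 and 899 counts in control cells against 522 and 528 in sh-SOX4. Its log2 fold change was -0.78 (SE 0.096, interval -0.99 to -0.56, adjusted p 0.00011). Within each library ETV5 had 10.3 and 9.96 times the counts of ETV4 in sh-Scb and 9.76 and 8.83 times in sh-SOX4, a ratio that no scaling of libraries can change. The third PEA3 factor, ETV1, was scarce, with 47 to 54 counts in every library, and its log2 fold change of 0.16 did not pass; without sh-Scb replicate 1 it was -0.08.

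**Figure D2:**
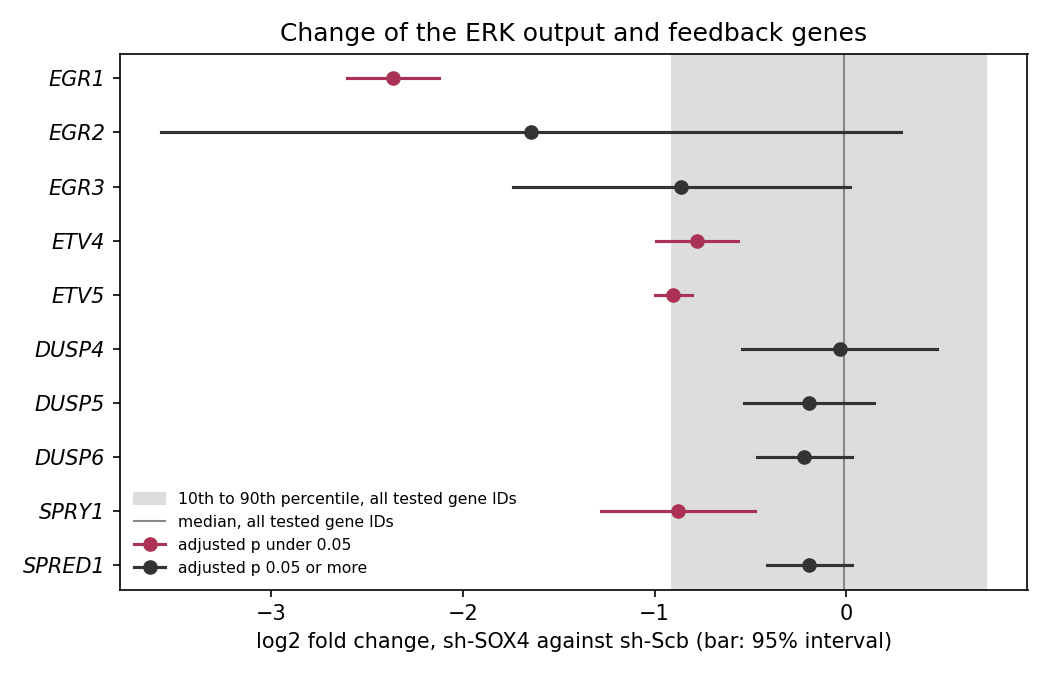
Log2 fold change of each member (point) with its 95% interval (bar), over the 10th to 90th percentile of all tested gene IDs (-0.91 to 0.73, grey) and their median (line). EGR1 lies wholly outside the grey band, ETV4, ETV5 and SPRY1 lie near its lower edge, and the 3 DUSP genes and SPRED1 lie inside it.

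The 3 MAP kinase phosphatases, which remove the phosphates that ERK needs, did not pass. DUSP6, the cytoplasmic phosphatase selective for ERK, on chromosome 12 from 89347232 to 89353271, had levels of 24.5 and 21.1 CPM in sh-Scb and 20.4 and 18.7 CPM in sh-SOX4. The gap between the groups is smaller than the spread within each, with a log2 fold change of -0.22, an interval from -0.47 to 0.03 and an adjusted p of 0.137. Without sh-Scb replicate 2 the adjusted p became 0.0407 at a log2 fold change of -0.33. The antisense gene AC024909.2 covers 40.5% of the exonic bases of DUSP6 but had at most 14 counts in a library. DUSP5, a nuclear phosphatase that is itself a transcriptional target of ERK, on chromosome 10 from 110497838 to 110511544, had 9.84 and 8.33 CPM in sh-Scb and 7.79 and 8.13 CPM in sh-SOX4, with a log2 fold change of -0.19 and an interval from -0.53 to 0.15. DUSP4, the nuclear phosphatase that also acts on JNK, on chromosome 8 from 29333064 to 29350668, had 4.05 and 5.28 CPM in sh-Scb and 3.85 and 5.24 CPM in sh-SOX4, so that replicates differed more than groups. Its log2 fold change was -0.04, with an interval from -0.54 to 0.47. These intervals exclude a fall as large as that of EGR1 for all 3 phosphatases, and a fall as large as that of ETV5 (-0.90) as well.

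EGR1 and ETV5 were also set against DUSP6 within single libraries. For each count of DUSP6, control cells gave 1.29 and 1.55 counts of EGR1, and sh-SOX4 cells 0.299 and 0.339. The same ratio for ETV5 was 12.1 and 14.1 in control cells and 7.87 and 8.35 in sh-SOX4. Neither pair of ranges overlaps. With 2 libraries in each group no permutation of libraries can test such a ratio at the 0.05 level, and the ratios are given as a description.

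SPRY1 and SPRED1 belong to related families that block the relay at or above RAF. SPRY1, on chromosome 4 from 123396795 to 123403760, gave 248 and 222 counts in control cells against 122 and 111 in sh-SOX4. Its level went from 6.97 ± 0.574 to 3.79 ± 0.0834 CPM (SD, n = 2), a log2 fold change of -0.88 (SE 0.18, interval -1.28 to -0.48, adjusted p 0.0028). SPRED1, which brings the RAS-inactivating protein neurofibromin to the membrane, on chromosome 15 from 38252326 to 38357249, gave 1767 and 1738 counts in control cells against 1468 and 1340 in sh-SOX4. Its sh-Scb levels of 46.7 and 57.7 CPM differed from each other, and the lower of them lay just above the sh-SOX4 levels of 46.3 and 45.0 CPM. The log2 fold change was -0.19, with an interval from -0.41 to 0.03 and an adjusted p of 0.144; without sh-Scb replicate 1 it became -0.34 with an adjusted p of 0.00156. SPRY1 had 0.140 and 0.128 times the counts of SPRED1 in sh-Scb and 0.0831 and 0.0828 times in sh-SOX4.

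Relatives of these inhibitors were read from the same fit, and were picked out after their values were seen. SPRY2 fell from 10.3 ± 0.94 to 4.91 ± 0.631 CPM (SD, n = 2), a log2 fold change of -1.06 with an adjusted p of 0.000557. SPRY4 fell by 0.80 and SPRED2 fell by 0.31 on the log2 scale. SPRED3, at 50 and 31 counts in control cells against 9 and 7 in sh-SOX4, fell by 2.17 (adjusted p 0.00345). It passed the filter on low counts only through the control libraries, where it is higher. SPRY3 did not pass. Of the 7 Sprouty and SPRED genes, 5 fell, SPRED3 among them, beside 20.9% of all tested IDs, and SPRED1 and SPRY3 did not pass. This tally was made after these values were seen.

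**Figure D3:**
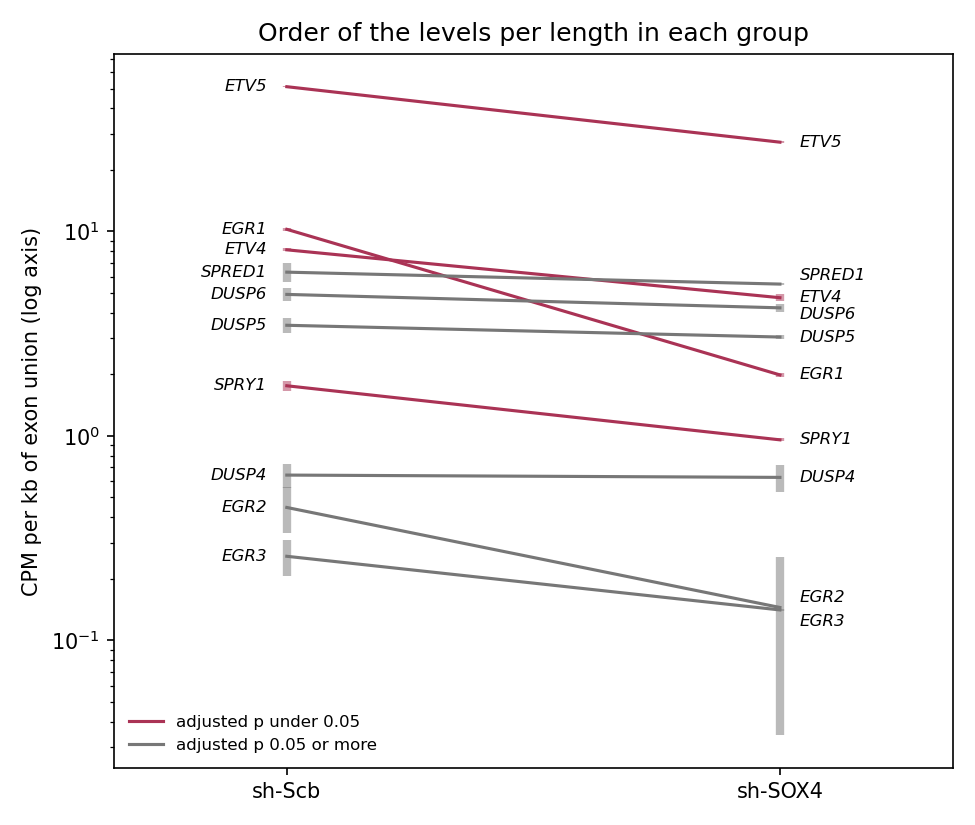
Mean CPM per kilobase of exon union (log axis) of each member in sh-Scb and sh-SOX4, joined by a line; thick bars span the 2 libraries. EGR1 crosses 4 other members, from second place at 10.2 to sixth place at 1.99, while the order of the other genes changes only between ETV4 and SPRED1.

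Per kilobase of exon union, ETV5 stood highest in both groups, at a mean level of 51.1 CPM per kb in sh-Scb and 27.3 in sh-SOX4. In sh-Scb it was followed by EGR1 (10.2), ETV4 (8.13), SPRED1 (6.32), DUSP6 (4.92), DUSP5 (3.47) and SPRY1 (1.76), with DUSP4, EGR2 and EGR3 below 1 CPM per kb. In sh-SOX4 the second place was held by SPRED1 (5.53), followed by ETV4 (4.74), DUSP6 (4.23) and DUSP5 (3.04), and EGR1 came after these at 1.99. The libraries of neighbouring genes overlapped only between DUSP4 and EGR2 in sh-Scb and between EGR2 and EGR3 in sh-SOX4. Exon-union lengths count bases of all annotated isoforms, so these levels are lower where Jurkat uses a short isoform.

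Other genes of the pathway, from 6 lists grouped by role, went in both directions. Together the lists held 121 genes, of which 117 were tested, 31 rose and 44 fell, and their median log2 fold change was -0.09. The share called was 64.1% over these genes, beside 44.1% of all tested IDs; within the lists it ran from 46.7% for EGR corepressors and targets to 72.2% for SRF, ETS and repressor partners. The nearest list to the members in direction was that of other ERK output and feedback genes, in which 13 of 25 tested genes fell, 3 rose and the median was -0.41. Among the 4 genes of this list with the smallest adjusted p, MCL1, a survival factor, fell by 0.51 and KLF6, a zinc finger factor, fell by 0.72 on the log2 scale. MYC, whose protein ERK stabilises, rose from 50.7 ± 2.07 to 193 ± 0.977 CPM (SD, n = 2), and ODC1, the first enzyme of polyamine synthesis, rose by 0.86 on the log2 scale. MYC and ODC1 thus moved against EGR1, ETV4, ETV5 and SPRY1. FOS, another SRF target, went from 201 and 163 counts to 124 and 93 counts, a log2 fold change of -0.61 (adjusted p 0.033). Leaving out sh-SOX4 replicate 2 raised this p to 0.168, and leaving out sh-Scb replicate 1 or 2 raised it to 0.077 or 0.0847. PHLDA1 fell by 0.67 on the log2 scale, with an adjusted p of 0.0109 (0.074 if sh-Scb replicate 1 is left out), and IER3 fell by 0.89, with 26.5% of its exonic bases shared with an antisense gene.

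**Figure D4:**
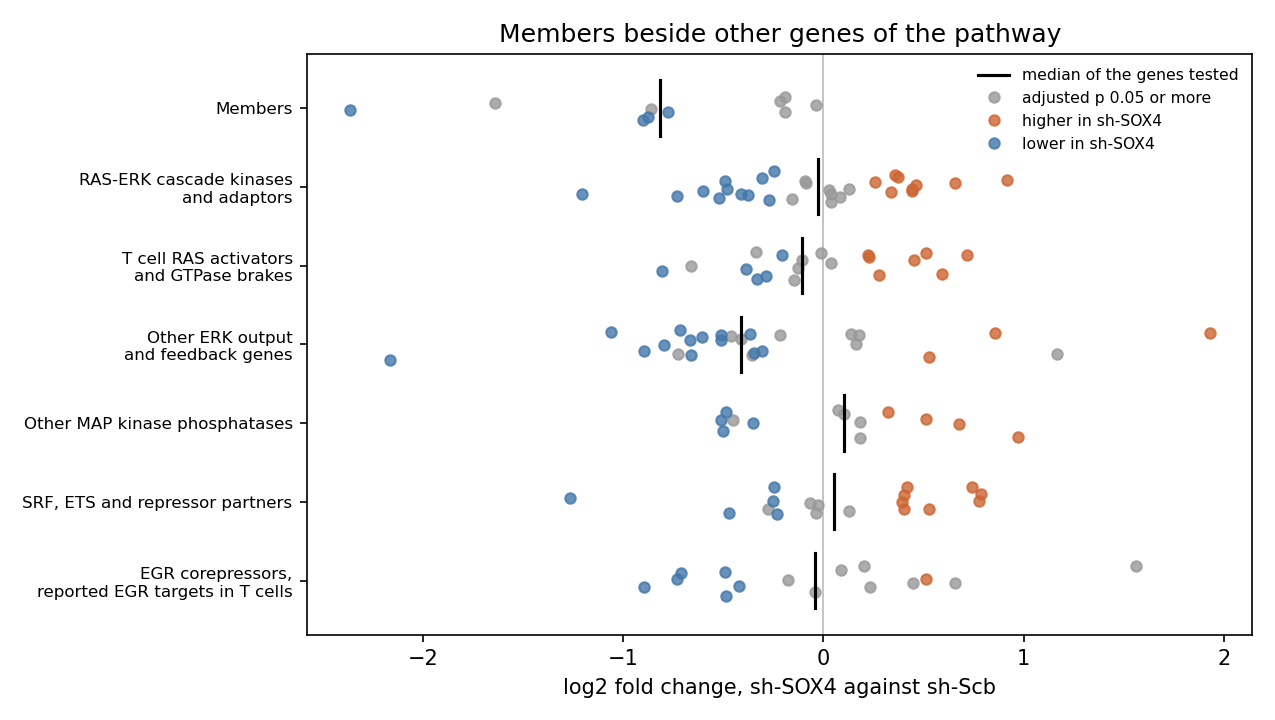
Log2 fold change of the members and of the tested genes of 6 other pathway lists; blue and orange points passed the test as lower and higher in sh-SOX4, grey points did not, and black bars are medians. The medians run from -0.82 for the members and -0.41 for other ERK output and feedback genes to 0.10 for other MAP kinase phosphatases.

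The kinase relay itself went both ways: of 28 cascade genes, 9 rose and 11 fell, with a median of -0.03. GAB2, a docking adaptor, fell by 1.21, RPS6KA3, a kinase activated by ERK, fell by 0.52, and MKNK2, another ERK substrate kinase, fell by 0.48 on the log2 scale. MAPK3, which encodes ERK1, fell by 0.38 and MAP2K2, which encodes MEK2, fell by 0.25. NRAS rose by 0.44, GRB2, the adaptor that recruits the RAS exchange factor SOS, by 0.44 and HRAS by 0.92 on the log2 scale. These are transcript levels, and the phosphorylation of ERK was not measured.

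Among genes that couple the T cell receptor to RAS or switch RAS off, 7 of 19 rose and 5 fell, with a median of -0.11. ZAP70, the receptor-proximal kinase, rose by 0.45 and the adaptor LCP2 by 0.59 on the log2 scale. LAT, the membrane adaptor, rose by 0.51, but 49.7% of its exonic bases lie in other annotated genes. RASGRP1, the main RAS exchange factor of T cells, fell by 0.33. Of the RAS GTPase-activating genes in this list, only RASAL3 rose, by 0.72. RASAL1 fell by 0.81, RASA3 by 0.39, RASA2 by 0.29 and RASA1 by 0.21, and NF1 and DAB2IP did not pass.

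Of the other MAP kinase phosphatases, 4 of 13 tested rose and 4 fell. PTPN7, a tyrosine phosphatase of lymphocytes that binds ERK, rose from 209.5 ± 4.37 to 411 ± 7.87 CPM (SD, n = 2), a log2 fold change of 0.97 with an adjusted p of 1.27e-07. PPP2CA, the catalytic subunit of protein phosphatase 2A, rose by 0.51 and DUSP2, a nuclear phosphatase of activated lymphocytes, by 0.68 on the log2 scale. DUSP3 fell by 0.50 and DUSP10, which acts on JNK and p38, fell by 0.49. DUSP1, an immediate early phosphatase, fell by 0.51 (adjusted p 0.013), but leaving out sh-SOX4 replicate 2 or sh-Scb replicate 1 raised the adjusted p to 0.0688 or 0.11. DUSP7, the closest relative of DUSP6 in this list, did not pass (log2 fold change 0.10).

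The list of SRF, ETS and repressor partners also went both ways, with 8 of 18 higher and 5 lower. Whether its genes act on the promoters of the members was not tested. SRF rose by 0.53 and ELK1, an ETS partner of SRF that ERK phosphorylates, fell by 0.47 on the log2 scale. The related ELK3 rose by 0.79, and ELK4 did not pass (log2 fold change -0.07). ATXN1 fell from 65.9 ± 0.901 to 27.4 ± 1.67 CPM (SD, n = 2). It encodes a cofactor of Capicua, the repressor of ETV4 and ETV5 that ERK relieves. The related ATXN1L had means of 121 CPM in sh-Scb and 119 CPM in sh-SOX4 and did not pass (log2 fold change -0.02). CIC, which encodes Capicua, fell by 0.23 (adjusted p 0.0432), but leaving out sh-SOX4 replicate 1 or sh-Scb replicate 2 raised the adjusted p to 0.218 or 0.246. The ETS factors ETV6, FLI1 and ETS1 rose by 0.74, 0.78 and 0.42 on the log2 scale, against the fall of ETV4 and ETV5. ERF, an ETS repressor held out of the nucleus by ERK, rose by 0.40.

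Of 15 tested EGR corepressors and reported EGR targets in T cells, 1 rose and 6 fell. NAB1, a corepressor of EGR factors, fell by 0.49, while NAB2, a corepressor whose gene EGR1 can induce, did not pass (log2 fold change -0.18). CD69, an early activation antigen, fell from 50.5 ± 3.44 to 30.8 ± 1.17 CPM (SD, n = 2). CBLB, a ubiquitin ligase that restrains T cell activation, fell by 0.73 on the log2 scale. TNFSF10, the death ligand TRAIL, was the gene that rose, by 0.51. ID3, an inhibitor of E proteins that EGR1 induces in thymocytes, did not pass (log2 fold change 0.20).

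**Figure D5:**
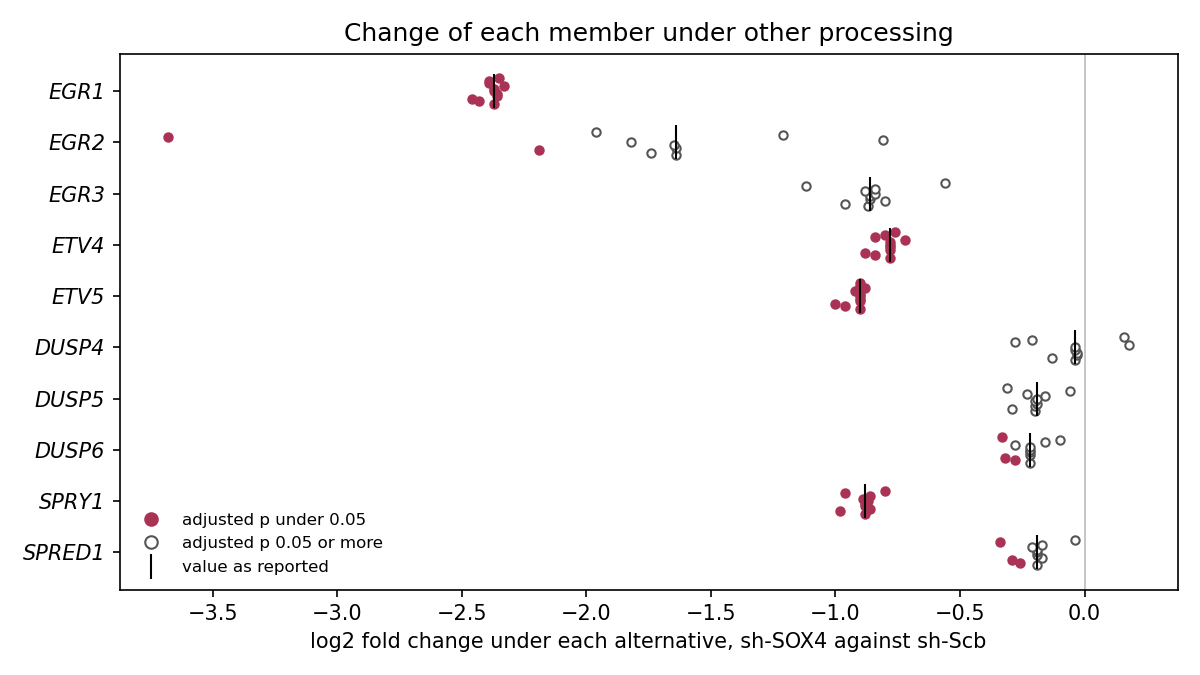
Log2 fold change of each member as reported (bar) and under each alternative processing (points; filled where the adjusted p was under 0.05). EGR1, ETV4, ETV5 and SPRY1 are filled throughout, while EGR2 ranges from -3.68 to -0.81 and DUSP4 lies on both sides of 0.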

How the data were processed

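The authors deposited 1 table of whole-number counts per Ensembl gene ID, not normalized, for the 4 libraries. HISAT2 2.2.0, StringTie and hg38 appear in the submitters' processing notes. Reads of antisense partners cannot be told apart, since neither the annotation release nor the use of strand is given in the sources used here. Columns named NC were taken as sh-Scb, the other columns naming SOX4. Symbols came from a supplied ID table (56105 IDs matched) and coordinates from GENCODE release 29 on GRCh38.

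IDs with low counts were dropped by edgeR's filterByExpr (at least 10 counts, total at least 15). TMM factors and the robust quasi-likelihood test came from edgeR 4.0.16 in R 4.3.3, fitted by group with 2 residual degrees of freedom. Benjamini-Hochberg adjustment covered all 19897 IDs, with a threshold of 0.05. SEs are the log2 fold change divided by the square root of F; 95% intervals use the model's degrees of freedom. Floors cover counting error only. Libraries of a group differed beyond sampling noise (median chi-square per gene 1.70 and 1.59, against 0.455), and each was counted as 1 replicate.

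The members, lists and rule for named genes were chosen with earlier results of these data known. The rule named the members, SOX4, the 4 genes with the smallest adjusted p in each list and genes overlapping a member; other named genes were added after their values were seen, and a few genes are not reported here. Alternatives were other scalings and filters, DESeq2 1.42.0, limma-voom (limma 3.58.1), a replicate block and leaving out each library. When this comparison was simulated over 19897 IDs, the test called 51.4% of 70 IDs set to a 1.5-fold change, 64.3% of 70 set to 2-fold and 81.7% of 60 set to 4-fold. There 19117 tested IDs were left unchanged, whereas 44.1% of tested IDs were called in the data. These shares therefore do not carry over to the real comparison. Figures were drawn with matplotlib 3.10.9.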

Additional observations from a re-analysis of the deposited data

How the results depend on the processing

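EGR1, ETV4, ETV5 and SPRY1 kept their direction and stayed past the threshold under every alternative that tested them, with log2 fold changes of -2.46 to -2.33, -0.88 to -0.72, -1.0 to -0.88 and -0.98 to -0.80. The number of members called was 5 of the 5 tested at 10 CPM or more in 2 libraries, 5 with limma-voom and 6 with library totals alone. At that stricter filter 7149 of 10797 IDs were called. EGR1 met it only through the sh-Scb libraries, as its sh-SOX4 levels were 6.12 and 6.35 CPM. DUSP6 passed at the stricter filter (-0.28, adjusted p 0.036) and with library totals (-0.32, adjusted p 0.0389), as did SPRED1 (-0.26, adjusted p 0.0387, and -0.29, adjusted p 0.0394), and EGR2 passed with limma-voom (-2.19, adjusted p 0.0438). The estimate for DUSP4 turned to 0.18 without sh-SOX4 replicate 1 and to 0.16 without sh-Scb replicate 2 and that for ETV1 to -0.08 without sh-Scb replicate 1 (0.44 without sh-Scb replicate 2); neither had passed. FOS missed the threshold with DESeq2 (adjusted p 0.113) and CIC with limma-voom (adjusted p 0.0681). The cause of these changes was not tested. With library totals, the median over all tested IDs was -0.109 in place of -0.01 on the log2 scale, and the share of higher calls was 40.8% in place of 52.5%. The same-numbered libraries of the groups did not deviate together (correlation -0.01 across genes), and with the replicate number as a block 8378 IDs were called in place of 8775, and 4 members in place of 4. Leaving out a library gave 7467 to 8294 called IDs, 70 to 74 called genes of the other lists and a log2 fold change of SOX4 between -0.52 and -0.46. EGR2 and EGR3 had under 100 counts in each library, and their SEs were 0.78 and 0.39 on the log2 scale.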
